A study of Homo sapiens with 4 samples.

Results

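The SLC1 genes SLC1A1, SLC1A3, SLC1A4 and SLC1A5, which encode carriers of glutamate and of small neutral amino acids in the plasma membrane, were followed in A549, an established human lung adenocarcinoma cell line. The 4 genes were taken by name and Ensembl identifier out of 58560 annotated genes, and they hold 30 annotated transcripts. The comparison was of 2 control libraries with 2 libraries from cells deprived of glutamine. Control cells (treatment label none) grew in DMEM with fetal bovine serum and antibiotics. Deprived cells were rinsed in PBS and kept in DMEM without glutamine but with the serum. By its label the first deprived library was kept so for 24 hours and the second (deprived replicate 2) for 25 hours; the protocol text has 24 hours for both. All 4 libraries come from 1 cell line, and the labels do not say whether they are separate cultures, so every p-value measures only the spread between these samples, which may be technical.

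The SLC1 family works by letting sodium ions run into the cell down their gradient, and it falls into 2 classes. SLC1A1 (EAAT3) and SLC1A3 (EAAT1, GLAST), like SLC1A2 (EAAT2), SLC1A6 and SLC1A7, concentrate glutamate and aspartate inside the cell. SLC1A4 (ASCT1) and SLC1A5 (ASCT2) exchange alanine, serine and other neutral amino acids across the membrane, and ASCT2 is a widely studied route of glutamine into tumour cells.

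Library totals ran from 101496318 to 123414592 estimated counts, and 30681 to 34366 genes had a count. Levels are given as CPM, counts scaled to a common library size, with TMM factors. The epithelial keratins KRT8, KRT18 and KRT7 were abundant, whereas 6 of 9 alveolar type II markers, among them NKX2-1 (at most 0.811 CPM), were under 1 CPM in every library and SFTPA1 was at 0. Of these 9 markers 2 were called higher (NKX2-1 and LAMP3) and 3 lower (SFTPD, NAPSA and ABCA3), and the most abundant, ABCA3, had 41.2 and 41.3 CPM in the controls against 27.7 and 28.6 CPM. Of the 7 epithelial markers, EPCAM (at most 2.70 CPM) and CLDN4 (at most 3.39 CPM) were low. Summed epithelial markers differed by group, at 8229 and 8389 CPM in the controls and 4181 and 3569 CPM in the deprived libraries. Of the 7, 5 were called lower and 1, KRT7, higher. KRT8, the most abundant in the controls, fell from 5154 and 5235 to 886 and 714 CPM. KRT7 rose from 656 and 706 to 2160 and 1836 CPM. Of the fibroblast markers 5 of 6, and of the endothelial markers 5 of 5, were under 1 CPM throughout. Summed blood markers were 21.6 CPM in control 1, through HBB and HBA1, and 1.04 to 2.04 CPM in the other libraries. The part of these marker levels in the changes below was not tested; without control 1 the log2 fold changes were -3.08 for SLC1A1, 0.94 for SLC1A4 and 0.57 for SLC1A5. In such bulk libraries, fewer cells of a type and less RNA per cell cannot be told apart.

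The glutamate carrier SLC1A1 fell, the neutral amino acid carriers SLC1A4 and SLC1A5 rose, and SLC1A3 was close to absent. Thus 2 of the 4 genes were called higher and 1 lower by edgeR's quasi-likelihood test (Benjamini-Hochberg adjusted p under 0.05), and SLC1A3 was too low to be tested. In the same fit 25.2% of 24527 tested genes were called higher and 24.4% lower, so a call was common. The median log2 fold change over all tested genes was -0.06, which moved to -0.40 with library size alone as the scale and to -0.17 with upper-quartile factors. With library size alone the calls split into 4179 genes higher and 8565 lower, against 6174 and 5982 with TMM.

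**Figure D1:**
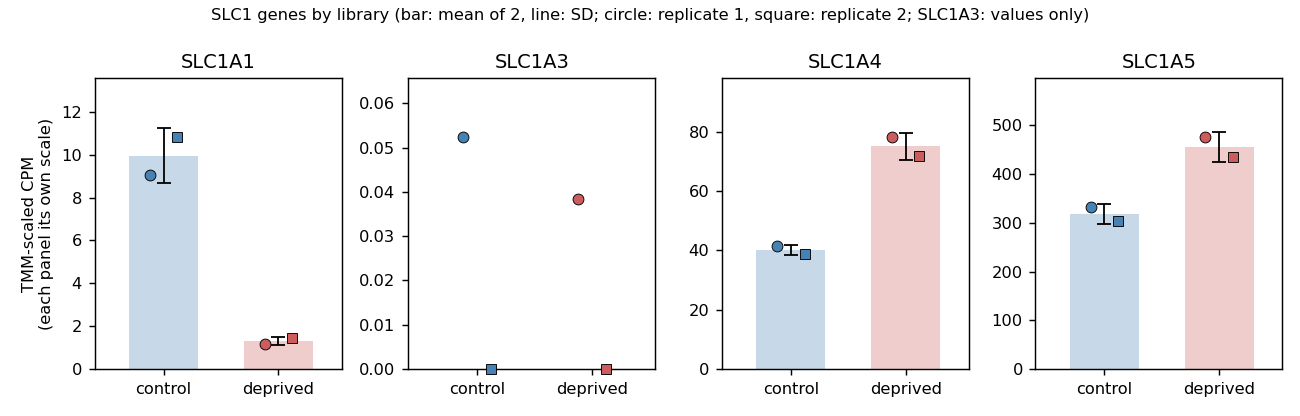
TMM-scaled CPM (vertical axes, each panel with its own scale) of the 4 SLC1 genes in the control (blue) and deprived (red) libraries; points are libraries, bars are means of 2 and lines are SDs, and SLC1A3 has points only. The deprived libraries lie below both controls for SLC1A1 and above both for SLC1A4 and SLC1A5, whereas for SLC1A3 the groups overlap at 0.

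SLC1A1 (ENSG00000106688, GRCh38 chr9:4490444-4587469, plus strand) carries glutamate, aspartate and also cysteine. It had 1032 and 1195 counts in the controls and 121 and 155 in the deprived libraries, which is 9.03 and 10.8 CPM against 1.16 and 1.43 CPM. Both deprived libraries lay far below both controls. The mean fell from 9.94 ± 1.28 to 1.29 ± 0.191 CPM (SD, n = 2 each), 7.68-fold lower (log2 fold change -2.94, SE 0.20, edgeR adjusted p = 9.57e-05). The gene SPATA6L lies across it on the opposite strand, but the annotated exons of the pair share 0 bases. The RefSeq window of 250 bases before its start is shown because the level of its RNA differed so widely (GRCh38.p14 chr9:4490218-4490467, plus strand, written 5′ to 3′). Capitals mark matches to the GC box (GGGCGG) on either strand.
SLC1A1 upstream window: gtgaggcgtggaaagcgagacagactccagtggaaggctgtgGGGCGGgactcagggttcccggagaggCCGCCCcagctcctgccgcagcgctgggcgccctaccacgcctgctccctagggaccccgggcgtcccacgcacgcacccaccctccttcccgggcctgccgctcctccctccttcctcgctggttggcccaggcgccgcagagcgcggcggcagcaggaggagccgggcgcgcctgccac
The window held 2 GC boxes and no match to the CCAAT box, to the E-box (CACGTG), which MYC can bind, or to the core TGATGNAA of the CARE element, which ATF4 can bind. A match is only a run of letters, and its absence says only that the letters are not in this window.

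SLC1A3 (ENSG00000079215, GRCh38 chr5:36606355-36688334, plus strand) is the glutamate carrier best known from astrocytes and was near the limit of detection. It had 6 and 0 counts in the controls and 4 and 0 in the deprived libraries, with a highest level of 0.0525 CPM. A count of 0 still allows a level of up to 3 counts, or 0.0299 CPM in control 2 and 0.0254 CPM in deprived 2 before TMM scaling, for counting error alone. Control and deprived values overlapped, and no difference was detectable at this depth. Of its 16 annotated transcripts only SLC1A3-211, with 4 counts in control 1, and SLC1A3-216, with 2 in control 1 and 4 in deprived 1, had any count. RefSeq also places a start of SLC1A3 at chr5 position 36596588, upstream of the annotated gene used here; a transcript from it could be among the 24114 transcript identifiers that found no gene, so the sum may be partial, as for any gene.

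The other glutamate carriers of the family were low as well. SLC1A2, the main glial glutamate carrier, had 1.13 and 0.926 CPM in the controls and 0.220 and 0.295 CPM in the deprived libraries. It fell in both deprived libraries (log2 fold change -1.99, SE 0.34, edgeR adjusted p = 0.00422). SLC1A6, known from cerebellar neurons, had 6 counts in control 1 and 0 elsewhere, and SLC1A7, known from the retina, had 11 counts in control 2 and 0 elsewhere. Both were untested. Both glutamate carriers that could be tested, SLC1A1 and SLC1A2, were thus called lower, beside 24.4% of all tested genes. So few genes allow no reading about the class.

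SLC1A4 (ENSG00000115902, GRCh38 chr2:64988477-65023865, plus strand) exchanges alanine, serine and cysteine and is not a main glutamine carrier. It had 4734 and 4289 counts in the controls and 8187 and 7808 in the deprived libraries, or 41.4 and 38.9 CPM against 78.4 and 72.0 CPM. Both deprived libraries lay above both controls. The mean rose from 40.2 ± 1.77 to 75.2 ± 4.55 CPM (SD, n = 2 each), 1.87-fold (log2 fold change 0.90, SE 0.08, edgeR adjusted p = 0.000241).

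SLC1A5 (ENSG00000105281, GRCh38 chr19:46774883-46788594, minus strand) takes up glutamine in exchange for another neutral amino acid. It was far more abundant, with 38054 and 33537 counts in the controls and 49853 and 47151 in the deprived libraries, or 333 and 304 CPM against 477 and 435 CPM. Again the groups did not overlap. The mean rose from 319 ± 20.3 to 456 ± 30.3 CPM (SD, n = 2 each), 1.43-fold (log2 fold change 0.52, SE 0.09, edgeR adjusted p = 0.00422). With library size alone the log2 fold change was 0.18 and the call was lost (edgeR adjusted p = 0.146), while over 13 alternatives the adjusted p ran from 1.55e-07 to 0.146. Its exons share 780 of 3332 bases with an antisense gene on the other strand (ENSG00000275719), which was assigned only 16 to 34 counts per library.

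The windows before the main RefSeq starts of the 2 genes that rose are shown so that they can be compared with that of SLC1A1 (GRCh38.p14; SLC1A4 chr2:64989149-64989398, plus strand; SLC1A5 chr19:46788595-46788844, minus strand). Capitals mark GC box (GGGCGG) and CCAAT box (CCAAT) matches on either strand; no 2 matches shared a base.
SLC1A4 upstream window: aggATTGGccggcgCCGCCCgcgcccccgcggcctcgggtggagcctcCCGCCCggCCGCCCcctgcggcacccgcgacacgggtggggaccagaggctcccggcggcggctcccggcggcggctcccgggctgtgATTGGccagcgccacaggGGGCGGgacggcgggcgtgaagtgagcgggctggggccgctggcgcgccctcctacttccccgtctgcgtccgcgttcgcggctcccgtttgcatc
SLC1A5 upstream window: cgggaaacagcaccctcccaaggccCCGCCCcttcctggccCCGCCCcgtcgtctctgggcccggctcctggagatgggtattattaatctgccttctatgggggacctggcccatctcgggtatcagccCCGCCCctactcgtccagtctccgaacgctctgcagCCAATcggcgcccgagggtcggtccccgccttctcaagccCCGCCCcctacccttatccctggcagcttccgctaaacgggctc
SLC1A4 held 4 GC boxes and 2 CCAAT boxes, and SLC1A5 held 4 GC boxes and 1 CCAAT box. Neither held a CARE core or an E-box, but the window of another RefSeq start of SLC1A5 (chr19:46787294-46787543, minus strand) held 1 E-box. Among 35116 RefSeq windows of the same length, 42.6% held a GC box, 32.0% a CCAAT box, 6.345% an E-box and 3.14% a CARE core, so the first pair is common anywhere.

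**Figure D2:**
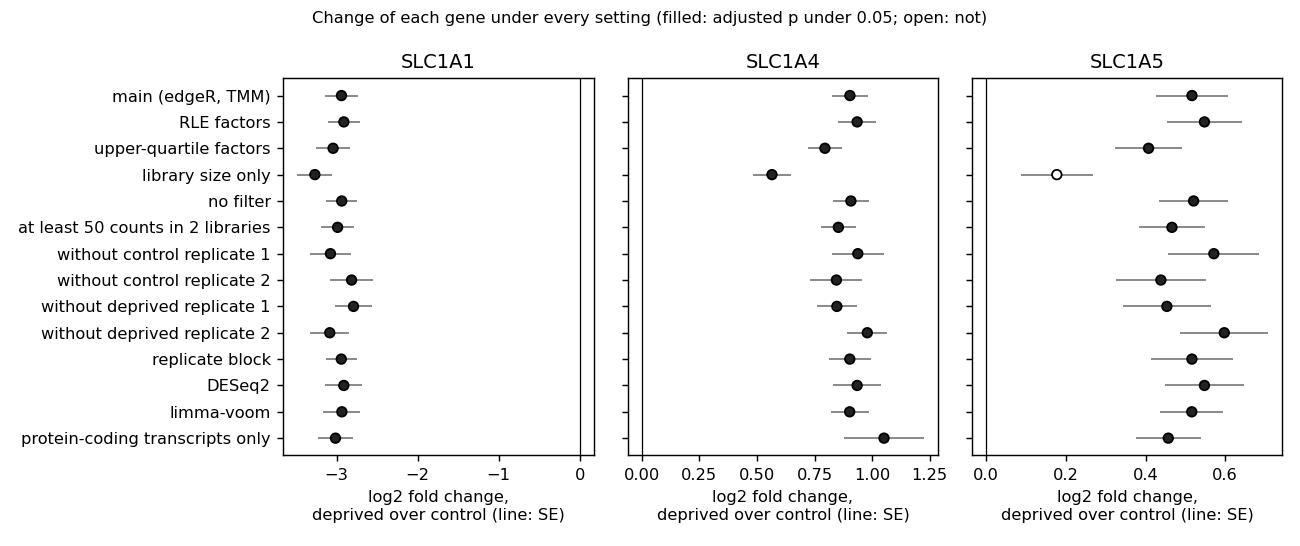
Log2 fold change of SLC1A1, SLC1A4 and SLC1A5, deprived over control (horizontal axes; lines are SEs), under the main fit and 13 alternatives (rows); filled points have an adjusted p under 0.05. Every point of SLC1A1 lies between -3.27 and -2.79 and every point of SLC1A4 between 0.57 and 1.05, and the open point of SLC1A5 is library size alone at 0.18.

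Only per length can the genes be ranked against each other. In TPM, a level per length that sums to the same total in each library, computed with each transcript's annotated length and without TMM factors, SLC1A5 was highest in all 4 libraries, then SLC1A4, SLC1A1 and SLC1A3. SLC1A5 had 257 and 203 TPM in the controls and 254 and 263 TPM in the deprived libraries, ranking between 402 and 513 among all genes. On this scale the groups overlapped for SLC1A5, unlike in TMM-scaled CPM. SLC1A4 had 20.1 and 16.1 TPM in the controls and 26.1 and 27.5 TPM in the deprived libraries. SLC1A1 had 5.38 and 5.75 TPM and then 0.465 and 0.778 TPM, and SLC1A3 at most 0.0783 TPM. No neighbours in this order overlapped within a library group.

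The balance among the carriers shifted while the leading one stayed in place. SLC1A5 made up 90.3% to 91.0% of the summed TPM of the 4 genes in every library. The share of SLC1A4 was 7.10% and 7.16% in the controls and 9.29% and 9.43% in the deprived libraries, and that of SLC1A1 was 1.90% and 2.56% against 0.165% and 0.267%. The ratio of SLC1A5 to SLC1A4 TPM was accordingly 12.8 and 12.6 in the controls and 9.74 and 9.57 in the deprived libraries, with no overlap.

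At the transcript level SLC1A1, SLC1A4 and SLC1A5 were each carried mostly by 1 protein-coding form. SLC1A1-201 held 99.3% ± 0.0062 of SLC1A1 counts in the controls and 98.7% ± 1.82 in the deprived libraries (SD, n = 2). SLC1A5-203 held 96.9% ± 2.78 and 96.3% ± 1.94 of SLC1A5 counts. SLC1A4-201 held 82.6% ± 15.5 and 96.1% ± 1.42 of SLC1A4 counts, a wide spread that came from control 2. Counts of overlapping transcripts are estimates and were noisier than gene sums, with a common biological coefficient of variation of 0.688 against 0.210 for genes.

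None of the 9 tested member transcripts was called by edgeR, where 0.719% of 88815 tested transcripts were called higher and 0.314% lower. The unadjusted edgeR p was under 0.05 for 4 of the 9, SLC1A1-201, SLC1A4-201, SLC1A5-203 and SLC1A5-205. The share of all tested transcripts with such an unadjusted p is not given here. This count therefore cannot be set against the shares called by adjusted p, and nothing is read from it. limma-voom on the same transcripts called 2 of 9, SLC1A1-201 lower (adjusted p = 0.0401) and SLC1A5-205 higher (adjusted p = 0.0431), where it called 2.06% of all tested transcripts higher and 1.20% lower. With at least 50 counts in 2 libraries edgeR called the same pair out of 6, and 5.36% of 53497 transcripts higher and 4.44% lower. Other settings moved the pair away from the threshold. Without a filter the edgeR adjusted p was 0.103 for SLC1A1-201 and 0.111 for SLC1A5-205. With the replicate number as a block it was 0.261 for both. SLC1A1-201 had 1025 and 1187 counts in the controls and 121 and 151 in the deprived libraries (log2 fold change -2.97, edgeR adjusted p = 0.0556). The main forms of the neutral carriers had higher values in both deprived libraries. SLC1A4-201 had 4431 and 3073 against 7948 and 7423 counts (log2 fold change 1.10, edgeR adjusted p = 0.0984), and SLC1A5-203 had 36109 and 33142 against 47315 and 46044 (log2 fold change 0.49, edgeR adjusted p = 0.0807).

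**Figure D3:**
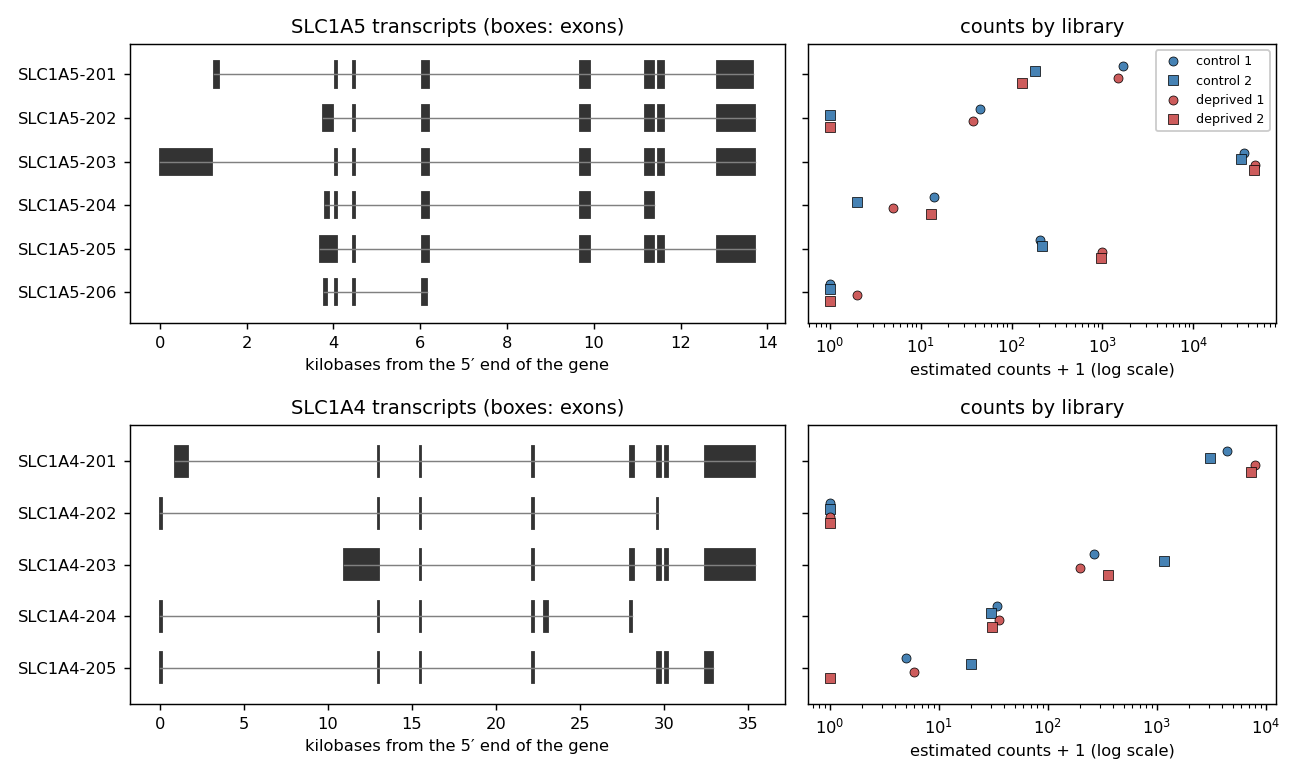
Left, exons (boxes) of the annotated transcripts of SLC1A5 and SLC1A4, in kilobases from the 5′ end of the gene; right, estimated counts plus 1 on a log axis in each of the 4 libraries. SLC1A5-205 lies at 204 and 215 counts in the controls and 995 and 966 in the deprived libraries, while SLC1A5-201 separates replicate 1 from replicate 2 in both groups.

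SLC1A5-205, which starts inside the gene (chr19:46774885-46784905, minus strand), differed most between the groups among the tested SLC1A5 forms. It had 204 and 215 counts in the controls and 995 and 966 in the deprived libraries. The mean was 1.85 ± 0.119 CPM in the controls and 9.03 ± 0.526 CPM in the deprived libraries (SD, n = 2), 4.88 times the control level (log2 fold change 2.29, SE 0.29, edgeR adjusted p = 0.0621). Both deprived libraries lay well above both controls, although edgeR did not call the difference. Its share of SLC1A5 counts was 0.589% ± 0.0742 and 2.02% ± 0.0374 (SD, n = 2), a difference of 1.43 percentage points. An exact permutation test of that share, two-sided, gave p = 0.333, the smallest that 2 against 2 libraries allow. The share test in edgeR (diffSpliceDGE) called 0 of 8 member transcripts, and none had an unadjusted p under 0.05. The lowest adjusted p in that test, 0.606, was that of SLC1A4-203, and that of SLC1A5-205 was higher. Of 72162 transcripts, 1.78% were called. On simulated data this share test called too many unchanged transcripts, so its calls elsewhere are not used.

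What sets SLC1A5-205 apart is its beginning. It lacks the first exon of SLC1A5-203 and runs through the bases just before the second exon (chr19:46784517-46784559), which are intron in SLC1A5-203. Its annotated coding sequence is 1095 bases long, against 1623 for SLC1A5-203, and only 116 of its bases belong to no other SLC1A5 form. The bases of that second exon, in capitals, are shown for both forms after the 38 coding bases that come before them, which differ and are in lower case; those of SLC1A5-205 reach back to its start codon, while SLC1A5-203 has more coding bases before them.
SLC1A5-203 coding join: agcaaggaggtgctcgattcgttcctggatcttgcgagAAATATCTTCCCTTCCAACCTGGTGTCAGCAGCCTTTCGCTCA
SLC1A5-205 coding start: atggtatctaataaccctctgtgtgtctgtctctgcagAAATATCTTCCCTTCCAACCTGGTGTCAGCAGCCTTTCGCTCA
The lower-case bases of SLC1A5-205 open with its annotated start codon at chr19 position 46784597. The genomic bases leading into its start are shown as well, with a CARE core in capitals (GRCh38.p14 chr19:46784904-46785064, minus strand). They were picked because they hold this match, which the window before the main SLC1A5 start lacks. They are part of the RefSeq window before another SLC1A5 start, at position 46784814, cut so as to end with the match. Several SLC1A5 windows were searched, and 3.14% of all RefSeq windows of 250 bases held a CARE core, so nothing is read from its presence here.
SLC1A5-205 upstream window: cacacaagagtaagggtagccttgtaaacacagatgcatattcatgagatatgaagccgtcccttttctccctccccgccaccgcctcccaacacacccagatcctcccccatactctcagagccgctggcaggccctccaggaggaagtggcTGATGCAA
The match covers positions 46784904 to 46784911, of which 6 lie before the annotated start at 46784905. SLC1A5-202, SLC1A5-204 and SLC1A5-206 start downstream of the same match, at 46784824, 46784786 and 46784803. They had at most 44, 13 and 1 counts in any library, and for each of them the groups overlapped. Each of these forms has 0 bases of its own, so such low counts rest on how shared reads were divided. Whether the match has a part in the level of any SLC1A5 form was not tested. A CARE core was also present in 1 of the SLC1A3 windows, that before the start at 36596588. This start lies upstream of the annotated gene used here, so the SLC1A3 counts may not cover transcripts from it and say nothing about that window.

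The other forms that averaged at least 1 CPM, SLC1A5-201 and SLC1A4-203, did not separate by group in this way. SLC1A5-201 had 1684 counts in control 1 and 1501 in deprived 1 but only 179 in control 2 and 129 in deprived 2. Replicate 1 was high and replicate 2 low in both groups (log2 fold change -0.08, edgeR adjusted p = 0.984), and the cause was not tested. SLC1A4-203, a form with a retained intron that has 2000 bases of its own, had 266 and 1168 counts in the controls and 199 and 355 in the deprived libraries. Control 2 stood apart, and the difference was not called (log2 fold change -1.34, edgeR adjusted p = 0.426).

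Among 41 other carriers of amino acids, 33 could be tested, and 10 were called higher and 9 lower, beside 25.2% and 24.4% of all tested genes. Their median log2 fold change was -0.12, also with SLC38A11, at 0 in both deprived libraries, set at its bound. With library size alone 7 were higher and 12 lower, and without control 1 or without deprived 1 only 7 were higher. SLC7A1, the cationic amino acid carrier CAT1, had the smallest p and rose from 45.0 and 42.8 to 294 and 327 CPM (log2 fold change 2.82, edgeR adjusted p = 1.33e-05). SLC7A6, a partner of SLC3A2 in exchange of cationic for neutral amino acids, and SLC38A1, a sodium-coupled glutamine carrier, rose by log2 fold changes of 1.60 and 1.51. SLC7A7, the other such partner of SLC3A2, fell from 16.1 and 15.1 to 1.67 and 2.22 CPM (log2 fold change -3.01). SLC7A5 and its partner SLC3A2, which exchange intracellular glutamine for leucine and were picked after their values were seen, rose by 1.17 and 1.45.

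**Figure D4:**
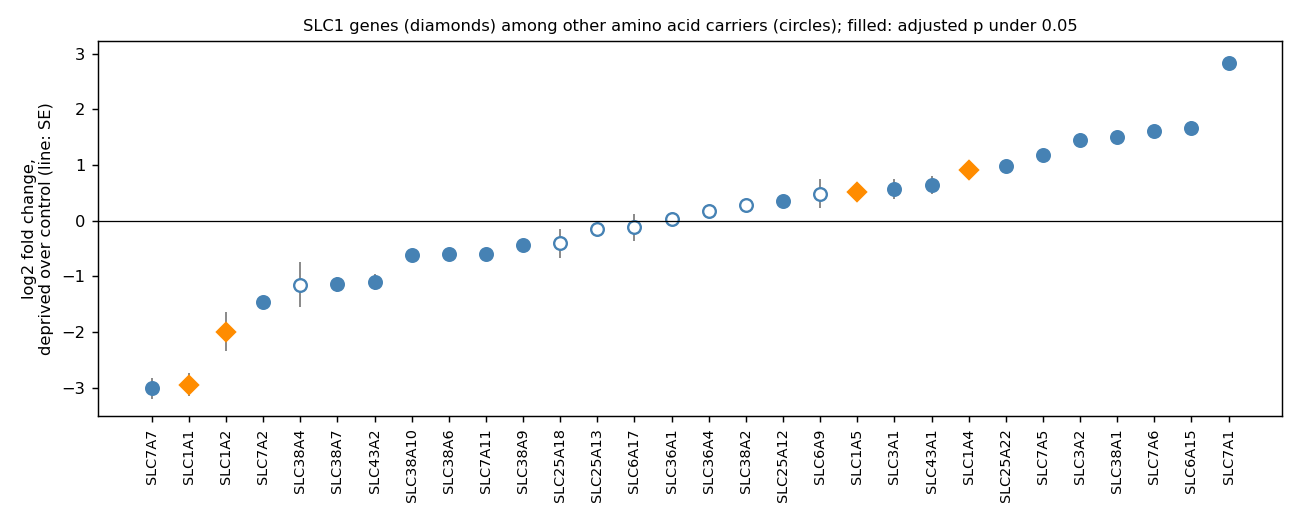
Log2 fold change, deprived over control (vertical axis; lines are SEs), of the tested SLC1 genes (diamonds) and of other amino acid carriers (circles) with a mean of the 2 group means of at least 0.5 CPM, 30 genes in order of change; filled symbols have an edgeR adjusted p under 0.05. SLC1A1 at -2.94 lies next to SLC7A7 at the low end, and SLC1A4 and SLC1A5 lie among the moderate increases, below SLC7A1 at 2.82.

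All 6 listed regulators linked to SLC1 genes were called higher, with a median log2 fold change of 0.81. The share over all tested genes was 25.2%, but the list was drawn up with results of these data known, so nothing is read from the difference. MYC, a transcription factor tied to SLC1A5, rose from 58.4 and 60.4 to 265 and 218 CPM (log2 fold change 2.02, edgeR adjusted p = 4.25e-05). RB1 and E2F3, of the cell cycle pathway linked to SLC1A5, rose by 0.77 and 0.85. ATF4, the effector of the amino acid response, and ARL6IP5, a protein that binds SLC1A1, were named after their values were seen and rose by 1.86 and 0.41. The deprived libraries differed widely for ATF4, at 409 and 670 CPM against 165 and 132 CPM in the controls. Its log2 fold change was 2.18 without deprived 1 and 1.47 without deprived 2. ARL6IP5 was not called with library size alone (log2 fold change 0.08) or without control 1 (0.30).

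Among 31 enzymes that make or use the amino acids carried by the family, 12 were called higher and 12 lower, beside 25.2% and 24.4% of all tested genes, with a median log2 fold change of -0.13. With library size alone 8 were higher and 15 lower. ASNS, which makes asparagine from aspartate with nitrogen from glutamine, rose from 53.5 and 52.5 to 579 and 530 CPM (log2 fold change 3.39, edgeR adjusted p = 8.64e-06). PHGDH, the entry enzyme of serine synthesis, and CBS, which joins serine and homocysteine, rose by 2.23 and 1.88. Summed over protein-coding transcripts alone, PHGDH had a log2 fold change of 0.62 and was not called (edgeR adjusted p = 0.151), with adjusted p from 7.76e-89 (DESeq2) to 0.151 over its alternatives. SHMT1, the cytosolic enzyme that interconverts serine and glycine, fell from 93.8 and 91.0 to 15.3 and 15.2 CPM (log2 fold change -2.60).

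The genes nearest in pattern to each carrier were sought among protein-coding genes that averaged 10 CPM or more, by the Euclidean distance of log2 CPM centred over the 4 libraries. For SLC1A1 they were CENPU, a centromere protein, at a distance of 0.0695, RARRES1 at 0.202 and RNASE4, a secreted ribonuclease, at 0.222. CENPU fell from 26.1 and 32.0 to 3.51 and 4.05 CPM, a log2 fold change of -2.94 as for SLC1A1. For SLC1A4 they were VCL, which encodes vinculin, at 0.0192, MAPKAPK5, a kinase, at 0.0244 and POLE3, a DNA polymerase epsilon subunit, at 0.0263. For SLC1A5 they were OPTN, an autophagy receptor, at 0.0200, FIZ1 at 0.0306 and XPO6, the exporter of actin, at 0.0312. These are likenesses over 4 libraries in 2 groups and are given as a description.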

How the data were processed

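Poly-A RNA of 4 A549 libraries, 2 control and 2 deprived of glutamine, was measured. Per the file headers the authors deposited 1 whole number per transcript for 229420 transcripts, named there as counts, and these deposited values were handled as estimated counts, since forms that share most exons, such as SLC1A5-203 and SLC1A5-201, differ widely in count. The submitters' processing notes name HISAT2 2.0.5, featureCounts 1.5.0-p3, DESeq2 1.20.0 and hg38, with no role given. Which tool split reads between overlapping transcripts, and which annotation release was used, is not given in the sources used here. GENCODE 29 matched 205306 identifiers, which held 98.0% to 98.3% of each library's counts; the other 24114 were left out. A deposited table of long non-coding RNAs was not used here.

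Counts were summed to genes, filtered with filterByExpr, scaled with TMM (factors 1.15, 1.10, 0.862 and 0.919) and tested with edgeR 4.0.16 (quasi-likelihood, two-sided, Benjamini-Hochberg over all genes) in R 4.3.3. SEs are the absolute log2 fold change over the square root of F. Transcripts were fitted likewise. The test code was tested on simulated data. Alternatives were other scaling, other filters, DESeq2 1.42.0, limma 3.58.1 voom, each library left out, a replicate block and sums over protein-coding transcripts; limma-voom on transcripts was added after seeing the data. Chi-square per degree of freedom between replicates was 31.0 (control) and 43.6 (deprived), so no library was a copy of another. At these depths a count of 0 allows 3 counts, or 0.0247 to 0.0301 CPM before TMM scaling, for counting error only.

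The genes named were the 4 genes and the rest of their family, member transcripts of at least 1 CPM on average, the 4 or fewer tested genes of smallest p in each list, and the 3 nearest in pattern; a few items under this rule are not reported here. The members and lists were chosen with earlier results of these data known. Promoter windows are from RefSeq (GRCh38.p14); all 4 genes matched.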

Additional observations from a re-analysis of the deposited data

How the results depend on the processing

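Of 156 values recomputed under 15 alternative settings, 149 kept their direction and side of the threshold, or stayed within 1.5 times for a count and within 1 SD of the replicates for a level, which is a wide limit for SLC1A3. With library size alone SLC1A5 had a log2 fold change of 0.18, no longer called by edgeR. The count of member genes called thereby fell from 3 to 2, which still lay within the limit of 1.5 times and is among the 149. The count of member transcripts called rose from 0 to 2 with limma-voom, a setting chosen after seeing the data, and to 2 with at least 50 counts in 2 libraries (SLC1A1-201 and SLC1A5-205); calls over all transcripts were also more frequent in both settings, and the cause was not tested. Over the longest transcript of each gene, mean levels were 6.50 TPM for SLC1A1 in controls, 25.2 for SLC1A4 in deprived libraries, and 271 and 307 for SLC1A5 in controls and deprived libraries; this setting divides by another length. With each library left out in turn the log2 fold change ran from -3.08 to -2.79 for SLC1A1, from 0.84 to 0.98 for SLC1A4 and from 0.44 to 0.60 for SLC1A5. Over all tested genes, replicate numbers did not pair the samples (correlation of deviations -0.0235). Transcripts were not checked in this way, and the counts of SLC1A5-201 split by replicate number in both groups. So did the low counts of SLC1A5-202, at 44 and 0 in the controls and 37 and 0 in the deprived libraries. The few counts of the SLC1A3 gene also lay in replicate 1 alone. With the number as a block the log2 fold changes of SLC1A1, SLC1A4 and SLC1A5 were -2.94, 0.90 and 0.52, and 3 member genes were called. In that fit 10608 genes were called in all, against 12156. Depth limits SLC1A3, SLC1A6 and SLC1A7.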

Other observations

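Some listed genes of glutamine and glutamate handling that the report does not name also differed, and were picked after their values were seen. GLUL, glutamine synthetase, had 32.8 and 36.8 CPM in the controls against 17.4 and 16.7 CPM in the deprived libraries (log2 fold change -1.03, edgeR adjusted p = 0.000244). SLC25A22, a mitochondrial glutamate carrier, had 15.9 and 14.9 CPM against 31.1 and 29.8 CPM (log2 fold change 0.98, edgeR adjusted p = 0.000250). SLC7A11, which exports glutamate in exchange for cystine, had 777 and 793 CPM against 510 and 531 CPM (log2 fold change -0.59, edgeR adjusted p = 0.00136).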
